A study of Mus musculus with 3 samples.

Results

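The insulin-like growth factor (IGF) axis was read here through 10 genes: the ligand genes Igf1 and Igf2, the receptor genes Igf1r and Igf2r, and the binding protein genes Igfbp2, Igfbp3, Igfbp4, Igfbp5, Igfbp6 and Igfbp7. The genes were read by the non-control probes whose gene name in the scanner files is the symbol of 1 of these genes, which gave 20 of 41174 probes and 10 of 27687 gene labels. All of the 20 also went to the same genes when matched to the RefSeq gene table. Probes designed on a sequence outside RefSeq were matched there by the same gene name, which is no separate check for them. Of the 20 probes, 17 carried the name in the files of all 3 arrays and 3 (2 of Igf1r and 1 of Igfbp3) only in the newer design file, that of the p53-null array. Total RNA of mouse ES cells, of mouse embryonic fibroblasts (MEF) labelled p53-null and of MEF that are wild type for p53, going by the design text, was hybridised to 1 one-colour Agilent array each. ES cells are pluripotent cells of the early embryo and MEF are primary fibroblasts. The labels name a Nanog-GFP reporter for all of the cells, and the fibroblasts are described as cells from which induced pluripotent stem cells were made. The labels give no strain, passage, number of embryos or embryo sex, and do not say which part of the p53 gene is missing.

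IGF1 and IGF2 are secreted growth factors that signal through the tyrosine kinase receptor IGF1R, while IGF2R, which also carries mannose 6-phosphate tagged enzymes to lysosomes, binds IGF2 and removes it. The IGF binding proteins hold the ligands outside the cell and can block or prolong their action. IGFBP7 binds IGFs more weakly than the others do. In the mouse embryo, Igf2 is expressed from the paternal allele and Igf2r mainly from the maternal allele, and human IGFBP3 is known as a gene that p53 activates.

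Where several probes read 1 gene, the sequences show what each could hybridise to, and they are given here for genes whose probes gave unlike values or carry the main results. Each probe has 60 bases, written 5′ to 3′ as in the scanner files, with its position on mouse build mm8 from the newer design file. For the first 4 probes all 60 bases are shown, and for the other 8 the first 30. The capitals mark a stop codon that closes an open reading frame at the end of the Igfbp2 probe.
Igf1, NM_184052, chr10:87343472-87343531, plus strand: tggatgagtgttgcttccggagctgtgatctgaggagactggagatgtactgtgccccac
Igfbp3, X81581, chr11:7108469-7109478, minus strand: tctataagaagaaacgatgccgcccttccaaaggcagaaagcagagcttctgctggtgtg
Igfbp4, NM_010517, chr11:98864367-98864426, plus strand: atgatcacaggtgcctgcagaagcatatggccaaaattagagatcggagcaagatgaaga
Igfbp2, NM_008342, chr1:72785310-72785369, plus strand: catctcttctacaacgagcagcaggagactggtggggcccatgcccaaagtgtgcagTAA
Igf1, NM_010512, chr10:87360570-87360629, plus strand: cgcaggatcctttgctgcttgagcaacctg
Igf1, AK050118, chr10:87292436-87292495, plus strand: taaaatagttgagtaaaatttgccactgat
Igfbp3, NM_008343, chr11:7106594-7106653, minus strand: gcagttttccaaaaacacagatttcttttc
Igfbp3, AK045003, chr11:7111815-7111874, minus strand: ctgtgacacaattcacaattccctatttaa
Igfbp4, NM_010517, chr11:98868110-98868169, plus strand: gagaagagaaacctcattcttggagtgaga
Igf1r, NM_010513, chr7:68100183-68100242, plus strand: caacacttaatagcaacaggacactcgaga
Igf1r, AK044980, chr7:68061142-68061201, plus strand: tttctcaacaggcgaacgcaggcttagagt
Igfbp5, NM_010518, chr1:72791462-72791521, minus strand: cacatcacatattactgtagctctctatag
The Igfbp3 probe on X81581 covers 1010 bases of the genome with its 60 bases, so it crosses an intron, while the probe on AK045003 lies in 1 block. The array's annotation calls the products of the AK045003 and AK050118 cDNAs unclassifiable and that of AK044980 the IGF1 receptor. G and C made up 35.0% of the bases of the AK050118 and AK045003 probes, and 55.0% of those of the Igfbp2 probe and of the Igf1 probe on NM_184052. The probes were not placed in exons, introns or transcript ends, which would need an mm8 annotation.

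Signals are given scaled, with the 75th percentile of the non-control spots of each array set at 1000, and a difference is log2 of 1 array minus log2 of another. Each group is 1 array, so there is no spread between samples and no test, and every value describes these arrays. The ± beside a log2 difference is the technical error from the scanner software's error model (SD), and a difference was called within that error where its 95% interval held 0. A signal not well above background (the scanner's mark) gives only a bound. The bound takes the higher of that signal and the lowest signal well above background on its array. Where the signal itself was the higher, the bound carries its technical error and is not a firm limit. This lowest signal was 12.1 on the ES cell array, 15.4 on the p53-null MEF array and 14.9 on the MEF array. The ES cell and MEF arrays shared a slide while p53-null MEF had another, so slide and group cannot be told apart where p53-null MEF are compared. The fibroblast arrays also differed in Xist, with 7152 in p53-null MEF and 3.35, a background level, in MEF. The Y-linked Ddx3y ran the other way, with 3.45, also a background level, in p53-null MEF and 635 in MEF, so embryo sex cannot be told apart from genotype either. The brighter Trp53 probe had 54.0 in p53-null MEF and 1574 in MEF, 29.1-fold lower, and the other was 2.76-fold lower. All 9 ES cell markers measured were well above background in ES cells, with 3 of them so in p53-null MEF and 5 in MEF, and all 10 fibroblast markers summed to 9113 in ES cells, 494346 in p53-null MEF and 640520 in MEF. No probe's level is set against another probe's, since probes differ in how well they bind. The marker sums do add different probes, so bright probes weigh most in them, and they are compared only between arrays.

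**Figure D1:**
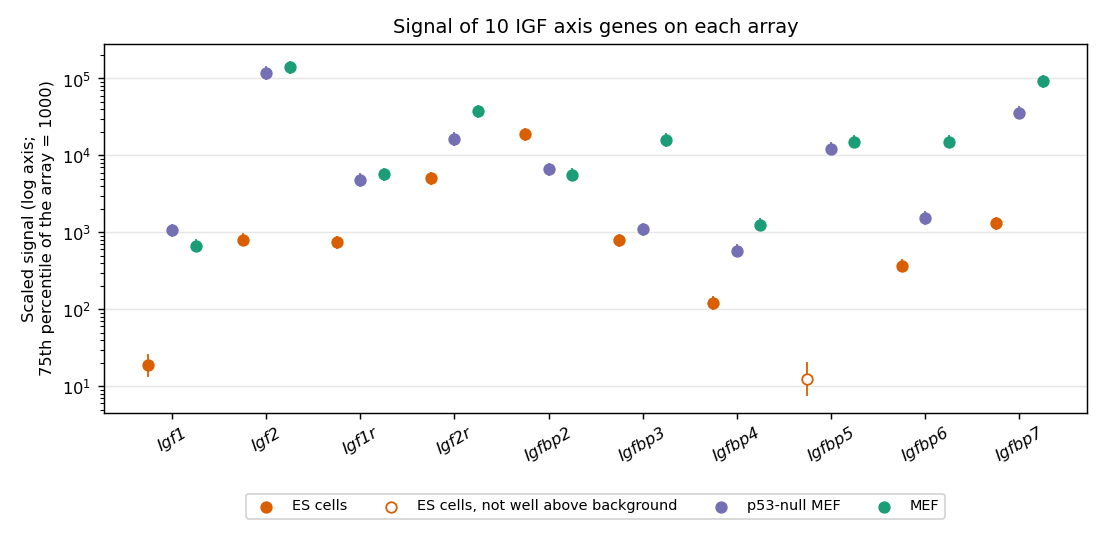
Scaled signal (log axis, 75th percentile of each array at 1000) of the brightest probe of the 10 genes on the ES cell, p53-null MEF and MEF arrays, with 95% intervals of the scanner error model. Signals in ES cells lie below both fibroblast arrays for 9 genes and above them for Igfbp2 (below p53-null MEF with spike-in scaling), and Igfbp5 in ES cells is not well above background at 12.5.

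In ES cells 9 of the 10 genes had at least 2-fold less signal than in MEF, and Igfbp2 had more. All 9 were lower by 5-fold or more, from 7.34-fold at Igf2r to 1210-fold at Igfbp5, and none was higher by 5-fold. The Igfbp5 value rests on an ES cell signal not well above background. The median log2 difference of the 10 genes was -4.74, against 0.21 over the 18759 gene labels measured. Of those labels 27.3% were lower and 32.9% higher in ES cells by 2-fold or more, and 13.1% lower and 13.2% higher by 5-fold or more. Between p53-null MEF and MEF the differences were smaller. There 5 of 10 genes were lower in p53-null MEF by 2-fold or more, namely Igfbp3, Igfbp6 and, with a sign that turned under scaling on spike-in controls, Igfbp7, Igf2r and Igfbp4. None was higher by that much. Of 17471 labels, 16.6% were lower and 18.6% higher in p53-null MEF by 2-fold or more, and the median of the 10 genes was -0.72 against 0.03 over all labels. Spike-in scaling moved the median of all labels to 2.09. Reading a value relative to that shift would undo this scaling, and which scaling is right was not tested.

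**Figure D2:**
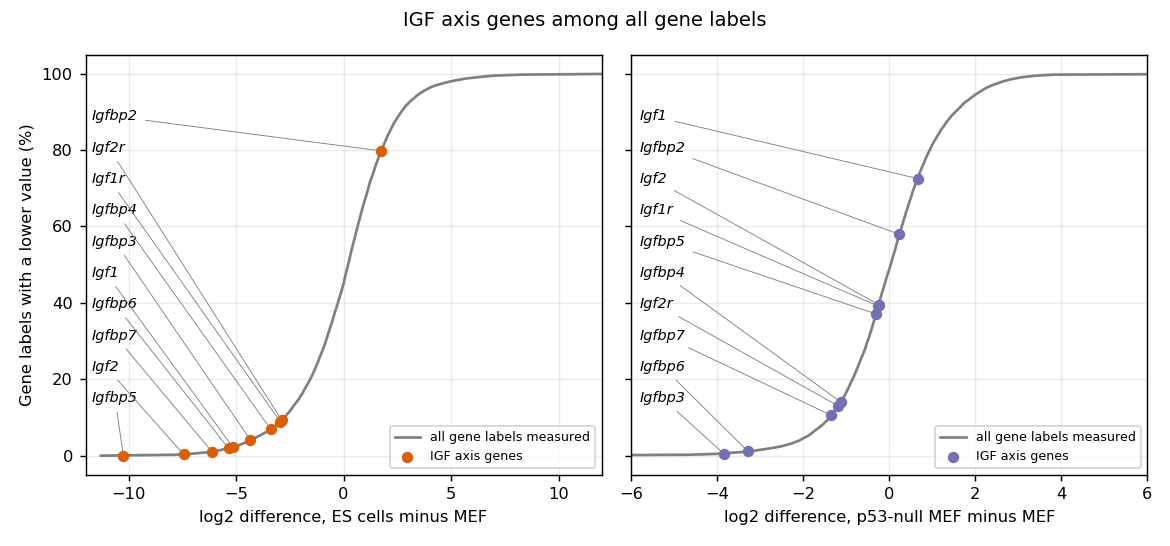
Log2 difference of each of the 10 genes (points) on the curve of all measured gene labels, with the percentage of labels that have a lower value on the vertical axis, for ES cells against MEF (left) and p53-null MEF against MEF (right). On the left 9 genes lie below 10% of the labels and Igfbp2 near 80%, and on the right Igfbp3 and Igfbp6 lie near 1% and Igf1 near 73%.

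Among the ligands, Igf2, the main fetal growth factor of the family, was far lower in ES cells and close to equal between the fibroblast arrays. Its brighter probe, printed at 10 spots, gave 804 in ES cells, 117896 in p53-null MEF and 139682 in MEF. The spots kept ran from 783 to 816 in ES cells (8 spots), from 104928 to 145228 in p53-null MEF (10 spots) and from 124435 to 154722 in MEF (9 spots). These are repeats of the probe on each array and not a spread between samples. The gene was 174-fold lower in ES cells than in MEF (log2 difference -7.44 ± 0.20) and differed by -0.24 ± 0.20 between p53-null MEF and MEF, within the error, and by 1.72 with spike-in scaling. A second Igf2 probe gave 205 in ES cells, 70600 in p53-null MEF and 61500 in MEF, 300-fold lower in ES cells than in MEF, and again within the error between the fibroblasts, at 0.20 ± 0.20. Its sign there was opposite to that of the brighter probe. No spot on any array was saturated.

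Igf1, the ligand that growth hormone induces in the liver and that many mesenchymal cells also make, was near background in ES cells and, of the genes at their brightest probes, had the largest positive difference between p53-null MEF and MEF. At the NM_184052 probe it had 18.9 in ES cells, 1065 in p53-null MEF and 674 in MEF. The ES cell value was 35.6-fold below that of MEF (-5.15 ± 0.29). It lay near the lowest signal well above background, and normexp background correction gave -3.11 for the same difference. Between the fibroblasts the gene was 1.58-fold higher in p53-null MEF (0.66 ± 0.20, or 2.63 with spike-in scaling), beyond the error and, as scaled here, short of 2-fold. The NM_010512 probe, printed at 10 spots, gave 15.4 in ES cells, 976 in p53-null MEF and 545 in MEF, which is 1.79-fold higher in p53-null MEF (0.84 ± 0.20). Its spots ran from 933 to 1009 in p53-null MEF and from 490 to 576 in MEF. Such spots are repeats on 1 array, so their range is not a spread between samples. The third Igf1 probe, on the cDNA AK050118, was well above background only in p53-null MEF, at 42.9. It had 3.07 in ES cells and 15.9 in MEF, so by the bound p53-null MEF were 2.69-fold above MEF (1.43 ± 0.43).

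Igf1r, which encodes the signalling receptor of both ligands, was lower in ES cells than in MEF at 3 of its 4 probes. Against p53-null MEF it was lower in ES cells at all 4. The brightest gave 744 in ES cells, 4795 in p53-null MEF and 5722 in MEF, 7.69-fold lower in ES cells than in MEF (-2.94 ± 0.20) and within the error between the fibroblasts (-0.25 ± 0.20, or 1.71 with spike-in scaling). The other probes on NM_010513 were 7.39-fold and 6.36-fold lower in ES cells than in MEF. Between p53-null MEF and MEF they differed by -0.71 ± 0.20, beyond the error, and -0.11 ± 0.20, within it. The first of these is the brightest that all 3 files name Igf1r. The probe on the cDNA AK044980, placed at a lower coordinate than the other 3 on the plus strand, ran the other way against MEF. It gave 55.2 in ES cells, 178 in p53-null MEF and 35.7 in MEF, so it was 4.97-fold higher in p53-null MEF (2.31 ± 0.26) and 1.55-fold higher in ES cells than in MEF. The mean of all 4 probes was therefore 0.31 between p53-null MEF and MEF and -1.97 between ES cells and MEF.

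Igf2r, the receptor that clears IGF2, had 5080 in ES cells, 16362 in p53-null MEF and 37288 in MEF at its single probe, on chromosome 17. The position given for this probe spans only 11 bases of mm8, fewer than the 60 bases of the probe. The order of the 3 arrays was the same as for Igfbp3, Igfbp4, Igfbp6 and Igfbp7, with ES cells lowest and MEF highest. Igf2, Igf1r and Igfbp5 also had this order at their brightest probes, but with the fibroblast arrays within the error. Igf2r was 7.34-fold lower in ES cells than in MEF (-2.88 ± 0.20) and 2.28-fold below MEF in p53-null MEF (-1.19 ± 0.20). With spike-in scaling the difference between the fibroblasts was 0.78, and the median of all labels was 2.09.

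The binding protein genes held both ends of the range in ES cells. Igfbp2, which encodes a binding protein abundant in fetal tissues, had 18941 in ES cells, 6616 in p53-null MEF and 5616 in MEF. It was 3.37-fold higher in ES cells than in MEF (1.75 ± 0.20), where 20.2% of all labels had a larger positive difference, and 2.86-fold higher than in p53-null MEF (1.52 ± 0.20), a difference of -0.21 with spike-in scaling. Between the fibroblasts it was within the error, at 0.24 ± 0.20 (2.21 with spike-in scaling). Igfbp5, a binding protein that mesenchymal, bone and muscle cells secrete, had 12.5 in ES cells, below the scanner's mark, 12147 in p53-null MEF and 15066 in MEF. By the bound it was 1210-fold lower in ES cells than in MEF (-10.24 ± 0.40) and 975-fold lower than in p53-null MEF (-9.93 ± 0.40). Both rest on an ES cell signal not well above background and are not firm lower limits. Normexp correction brought the log2 differences to -7.43 and -7.27. The second Igfbp5 probe had 2.86 in ES cells, again below that mark, 143 in p53-null MEF and 135 in MEF, at least 11.1-fold lower in ES cells than in MEF. Both probes placed the fibroblast arrays within the error of each other, at -0.31 ± 0.20 (1.66 with spike-in scaling) and 0.09 ± 0.21.

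Igfbp2 and Igfbp5 are next to each other on chromosome 1, with no annotated gene between them in RefSeq, and 6092 bases of mm8 separate the Igfbp2 probe from the nearer Igfbp5 probe. Their probes lie on opposite strands. The neighbours thus had opposite orders between ES cells and MEF, with Igfbp2 higher and Igfbp5 lower in ES cells. On chromosome 11, Igfbp1, the neighbour of Igfbp3, was not well above background on any array, at 6.44 in ES cells, 3.32 in p53-null MEF and 3.22 in MEF.

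Igfbp3, the main carrier of IGFs in blood, had the largest difference of the 10 genes between p53-null MEF and MEF. Its brightest probe gave 791 in ES cells, 1099 in p53-null MEF and 15873 in MEF, so ES cells and p53-null MEF were both far below MEF. It was 14.4-fold lower in p53-null MEF (-3.85 ± 0.20), where 0.555% of labels had a more negative value, and 20.1-fold lower in ES cells (-4.33 ± 0.20). The probe that crosses an intron gave 32.3 in ES cells, 35.2 in p53-null MEF and 539 in MEF, 15.3-fold lower in p53-null MEF (-3.93 ± 0.25) and 16.7-fold lower in ES cells (-4.06 ± 0.24). The AK045003 probe had 69.7 in ES cells, 39.8 in p53-null MEF and 107 in MEF, and its differences from MEF were smaller, at -0.61 ± 0.22 for ES cells and -1.42 ± 0.25 for p53-null MEF. Spike-in scaling left the brightest probe lower in p53-null MEF, at -1.88.

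Igfbp6, whose product prefers IGF2 over IGF1, followed Igfbp3 in p53-null MEF. It had 368 in ES cells, 1540 in p53-null MEF and 15008 in MEF, 9.75-fold below MEF in p53-null MEF (-3.29 ± 0.20) and 40.7-fold lower in ES cells than in MEF (-5.35 ± 0.20). With spike-in scaling it was still lower in p53-null MEF, at -1.32. Of the 10 genes, Igfbp3 and Igfbp6 were lower in p53-null MEF by 5-fold or more, as were 3.03% of all labels, and none was higher by that much, against 3.35% of labels.

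Igfbp7 and Igfbp4 were lower in p53-null MEF by 2-fold or more, with signs that turned under spike-in scaling. Igfbp7 had 1316 in ES cells, 35970 in p53-null MEF and 91553 in MEF, 69.5-fold below MEF in ES cells (-6.12 ± 0.20) and 2.55-fold below it in p53-null MEF (-1.35 ± 0.20). The brighter probe of Igfbp4, an inhibitor of IGF action, gave 120 in ES cells, 578 in p53-null MEF and 1264 in MEF, 10.5-fold below MEF in ES cells (-3.39 ± 0.21, or -2.69 with normexp correction) and 2.19-fold below it in p53-null MEF (-1.13 ± 0.20). Its second probe gave 66.8 in ES cells, 252 in p53-null MEF and 935 in MEF, and was 3.70-fold lower in p53-null MEF (-1.89 ± 0.21). Under spike-in scaling Igfbp7 and Igfbp4 were at 0.62 and 0.84, higher in p53-null MEF in sign, and the median of all labels was 2.09. Without any scaling 3 of the 10 genes were lower in p53-null MEF by 2-fold or more, in place of 5.

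**Figure D3:**
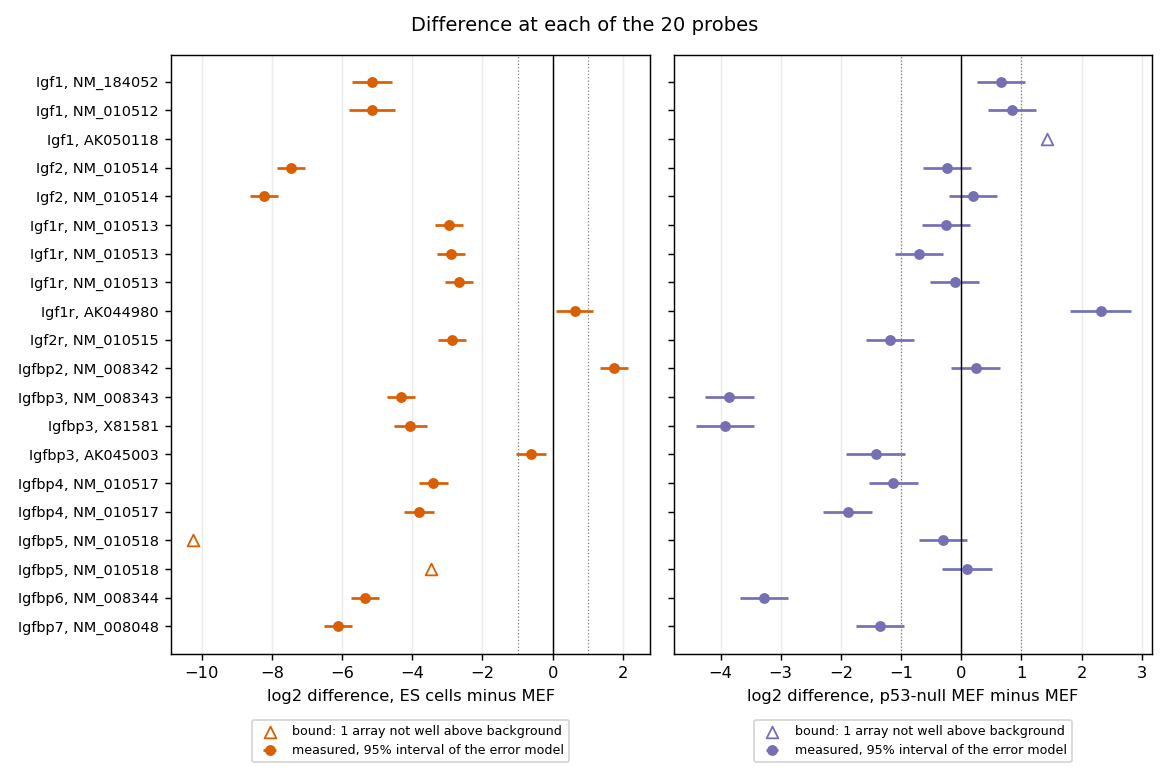
Log2 difference at each of the 20 probes, labelled by gene and design transcript, for ES cells minus MEF (left) and p53-null MEF minus MEF (right), with 95% intervals of the error model, open triangles for bounds and dotted lines at 2-fold. The Igf1 probe on AK050118 has no value on the left because neither array was well above background, and the Igf1r probe on AK044980 lies to the right of the other 3 Igf1r probes in both panels.

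Against p53-null MEF, ES cells were lower at 8 of the 10 genes and higher at Igfbp2 by 2-fold or more, Igfbp2 being at -0.21 with spike-in scaling. Of 18374 labels, 24.0% were lower and 26.9% higher by that much. By 5-fold or more, 5 genes were lower and none higher, as were 10.5% and 8.70% of labels. This comparison shares its arrays with the others. Igfbp3 was the remaining gene, with a difference of -0.48 ± 0.20 at its brightest probe (0.07 as the mean of its 3 probes), -0.12 ± 0.28 at the probe that crosses an intron and 0.81 ± 0.25 on AK045003. Igf2r was 3.22-fold, Igfbp6 4.18-fold, Igfbp4 4.81-fold (-2.27, or -1.74 with normexp correction) and Igf1r 6.44-fold lower in ES cells than in p53-null MEF. The differences of Igf2 and Igfbp7 were larger, at 147-fold and 27.3-fold. That of Igf1 was 56.3-fold (-5.82), with an ES cell signal near the floor, and became -3.58 with normexp correction and -7.55 with spike-in scaling.

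Other markers moved between the fibroblast arrays along with the lower Igfbp3, Igfbp6, Igfbp7, Igfbp4 and Igf2r. All 6 p53 target genes were lower there by 2-fold or more, with a summed signal of 7084 in p53-null MEF and 67572 in MEF, and all 6 proliferation genes higher, with 57115 in p53-null MEF and 6556 in MEF. Of the 10 fibroblast markers, 3 were lower in p53-null MEF by 2-fold or more and none higher: the proteoglycan gene Dcn at 5.76-fold, Pdgfra at 4.12-fold and Col3a1 at 2.07-fold. The adipocyte gene Lpl was 9.88-fold lower, as 1 of 4 adipocyte markers measured, and no other was lower or higher by 2-fold or more. Adipocyte markers summed to 7688 in p53-null MEF and 9872 in MEF, and without Lpl to 7100 in p53-null MEF and 4063 in MEF. Bone and cartilage markers summed to 2453 in p53-null MEF and 12110 in MEF (5 of 6 measured genes lower by 2-fold or more, 1 higher). Macrophage markers summed to 584 in p53-null MEF and 2986 in MEF (2 of 6 lower, 1 higher), and without Lyz2 to 462 in p53-null MEF and 596 in MEF. Skeletal muscle markers summed to 2757 in p53-null MEF and 7845 in MEF (1 of 4 lower, 2 higher), and without Acta1 to 358 in p53-null MEF and 153 in MEF. Endothelium markers summed to 757 in p53-null MEF and 637 in MEF (1 of 4 lower, 1 higher). The 1 liver marker measured, as a bound, was higher in p53-null MEF. Of the defining genes, 2 of 7 bone and cartilage, 4 of 8 macrophage and 2 of 6 skeletal muscle genes lacked the well-above-background mark in p53-null MEF, against 1, 3 and 2 in MEF. The part of these in the results was not tested. In such bulk RNA, fewer cells of a type and less RNA per cell cannot be told apart.

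Patterns close to those of the members over the 3 arrays were sought among 14324 gene labels well above background on all of them, by the largest gap between the 3 log2 differences. This is a description of 3 arrays. For Igfbp3 no label came within 0.2, and the nearest were the cartilage matrix gene Comp, with a gap of 0.35, and Ablim1, with 0.37. For Igfbp6 the nearest was Cd55, which encodes a complement regulator, at 0.15, and for Igf2 Loxl2, which encodes a collagen cross-linking oxidase, at 0.17. Igf1 had Kif26b at 0.16 and the mesenchymal factor Tbx18 at 0.18 beside it, and Igfbp7 the homeobox gene Hoxb6 at 0.10. Igfbp4 had 31 labels within 0.2, the nearest being the laminin gene Lamb2 at 0.01. Igfbp2 had 99 labels within 0.2, the nearest being the chaperonin gene Cct6b at 0.01. Igf1r had 34 within that gap, the nearest being the metalloproteinase gene Adam9 at 0.04, and Igf2r had 30, the nearest being A830007P12Rik at 0.01.

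The sequence upstream of 4 binding protein genes is shown: Igfbp2 and Igfbp5 as neighbours with opposite orders in ES cells, and Igfbp3 and Igfbp6 as the members that differed most in p53-null MEF. Each run holds the 250 bases before the RefSeq start site (GRCm38.p6), 5′ to 3′ on the gene's strand, with the CG dinucleotides in capitals. For Igfbp2, which has 2 such windows, the first in the RefSeq table is shown.
Igfbp2, chr1:72824230-72824479, plus strand: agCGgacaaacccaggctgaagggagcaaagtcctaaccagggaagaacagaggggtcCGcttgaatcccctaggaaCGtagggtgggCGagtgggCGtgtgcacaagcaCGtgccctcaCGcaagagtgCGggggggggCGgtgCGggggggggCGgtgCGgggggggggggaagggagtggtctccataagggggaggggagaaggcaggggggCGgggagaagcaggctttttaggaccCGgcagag
Igfbp5, chr1:72874866-72875115, minus strand: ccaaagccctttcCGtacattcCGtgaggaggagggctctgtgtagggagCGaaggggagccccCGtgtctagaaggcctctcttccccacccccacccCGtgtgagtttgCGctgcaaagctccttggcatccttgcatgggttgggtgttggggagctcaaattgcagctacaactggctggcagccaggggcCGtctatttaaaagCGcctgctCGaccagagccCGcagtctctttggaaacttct
Igfbp3, chr11:7213924-7214173, minus strand: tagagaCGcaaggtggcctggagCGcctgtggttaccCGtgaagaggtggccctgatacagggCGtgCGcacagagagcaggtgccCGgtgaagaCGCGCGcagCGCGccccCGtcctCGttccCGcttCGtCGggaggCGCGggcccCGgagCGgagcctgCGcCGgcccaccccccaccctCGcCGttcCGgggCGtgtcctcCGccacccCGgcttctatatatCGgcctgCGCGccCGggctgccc
Igfbp6, chr15:102143936-102144185, plus strand: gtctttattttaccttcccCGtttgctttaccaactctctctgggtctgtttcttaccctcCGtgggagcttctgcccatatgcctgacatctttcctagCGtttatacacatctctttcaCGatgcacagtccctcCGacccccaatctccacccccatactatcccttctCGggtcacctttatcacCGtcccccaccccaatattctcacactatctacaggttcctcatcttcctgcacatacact
The windows shown hold 14 CG dinucleotides at Igfbp2 (11 in its other window), 10 at Igfbp5, 32 at Igfbp3 and 7 at Igfbp6, against a median of 6 over 32851 windows of the same length. Of all windows 95.4% had fewer than Igfbp3. The motif GGGCGG, on either strand, was found 3 times in the Igfbp2 window shown, not in its other window and not at the other 3 genes, while 32.7% of all windows held it. TATAAA, on either strand, was found in the Igfbp6 window and in 12.4% of all windows. The p53 half-site consensus was in none of these 4 windows and in 7.13% of all, so these letters are not in these stretches.

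Of 50 other genes of the pathway, a list of receptors, adaptors, kinases, proteases and regulators, 49 were on the array and 45 were measured between ES cells and MEF. Of these 18 (40%) were lower and 8 (17.8%) higher in ES cells by 2-fold or more, against 27.3% and 32.9% of all labels. Normexp correction left 4 higher. Their median was -0.22. Upstream of Igf1, the growth hormone receptor gene Ghr had 287 in ES cells, 7324 in p53-null MEF and 5577 in MEF and was 19.4-fold lower in ES cells than in MEF. Irs1, the docking protein of the insulin and IGF1 receptors, had 298 in ES cells, 12685 in p53-null MEF and 13673 in MEF, 45.9-fold lower in ES cells. The adaptor gene Grb14 was 24.3-fold and the kinase gene Akt1 7.91-fold lower there. Insr, the insulin receptor gene, was not well above background on any array, and neither were Ins1 and Pappa2.

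The proteases and sorting receptors on the list had values on both sides in ES cells. Pappa, the protease that cleaves IGFBP4, had 4.19 in ES cells, under the background mark, 2524 in p53-null MEF and 3849 in MEF, at least 318-fold lower in ES cells than in MEF. Stc1, which encodes an inhibitor of that protease, was at least 22.8-fold lower, and Htra1, a secreted protease that cleaves binding proteins, 11.3-fold lower. Ctsd, a lysosomal protease of the kind that IGF2R sorts, was 8.75-fold lower in ES cells and 4.30-fold lower in p53-null MEF, each against MEF. M6pr, the other mannose 6-phosphate receptor gene, had 20811 in ES cells, 12047 in p53-null MEF and 14227 in MEF, 1.46-fold higher in ES cells than in MEF. Higher in ES cells by 5-fold or more were the kinase gene Pik3cb at 7.62-fold, Socs2, a feedback inhibitor of growth hormone signalling, at 6.28-fold and Igf2bp1, which binds Igf2 mRNA, at 10.6-fold. Igf2bp1 had 28044 in ES cells, 6207 in p53-null MEF and 2656 in MEF, an order opposite to that of Igfbp4 and Igfbp7. Its relative Igf2bp3 had 3260 in ES cells, 3631 in p53-null MEF and 2906 in MEF.

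H19, the maternally expressed neighbour of Igf2, had 385 in ES cells, 30583 in p53-null MEF and 146944 in MEF. Against MEF it was 382-fold lower in ES cells and 4.80-fold lower in p53-null MEF, where Igf2 itself was within the error. Plagl1, an imprinted zinc finger factor gene, was 24.2-fold lower in ES cells than in MEF and differed by -0.56 between the fibroblasts. Between p53-null MEF and MEF 42 pathway genes were measured, of which 6 (14.3%) were higher and 4 (9.52%) lower in p53-null MEF by 2-fold or more. These shares were below the 18.6% and 16.6% of all labels. The median of the 42 was -0.11. The 6 were Ins2 at 3.88-fold, Rictor, with 592 in p53-null MEF and 191 in MEF, Pik3cb at 2.46-fold, Igf2bp1 at 2.34-fold, Rps6kb1 at 2.18-fold and Stc2 at 2.10-fold, and the 4 were H19, Ctsd, Grb14 at 3.87-fold and Pik3r2 at 2.13-fold. Of the 8 Rictor probes, the brightest gave 1.63 and the smallest difference was 0.46. None of the 42 reached 5-fold. With spike-in scaling 36 pathway genes passed 2-fold upwards in p53-null MEF and 0 downwards.

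**Figure D4:**
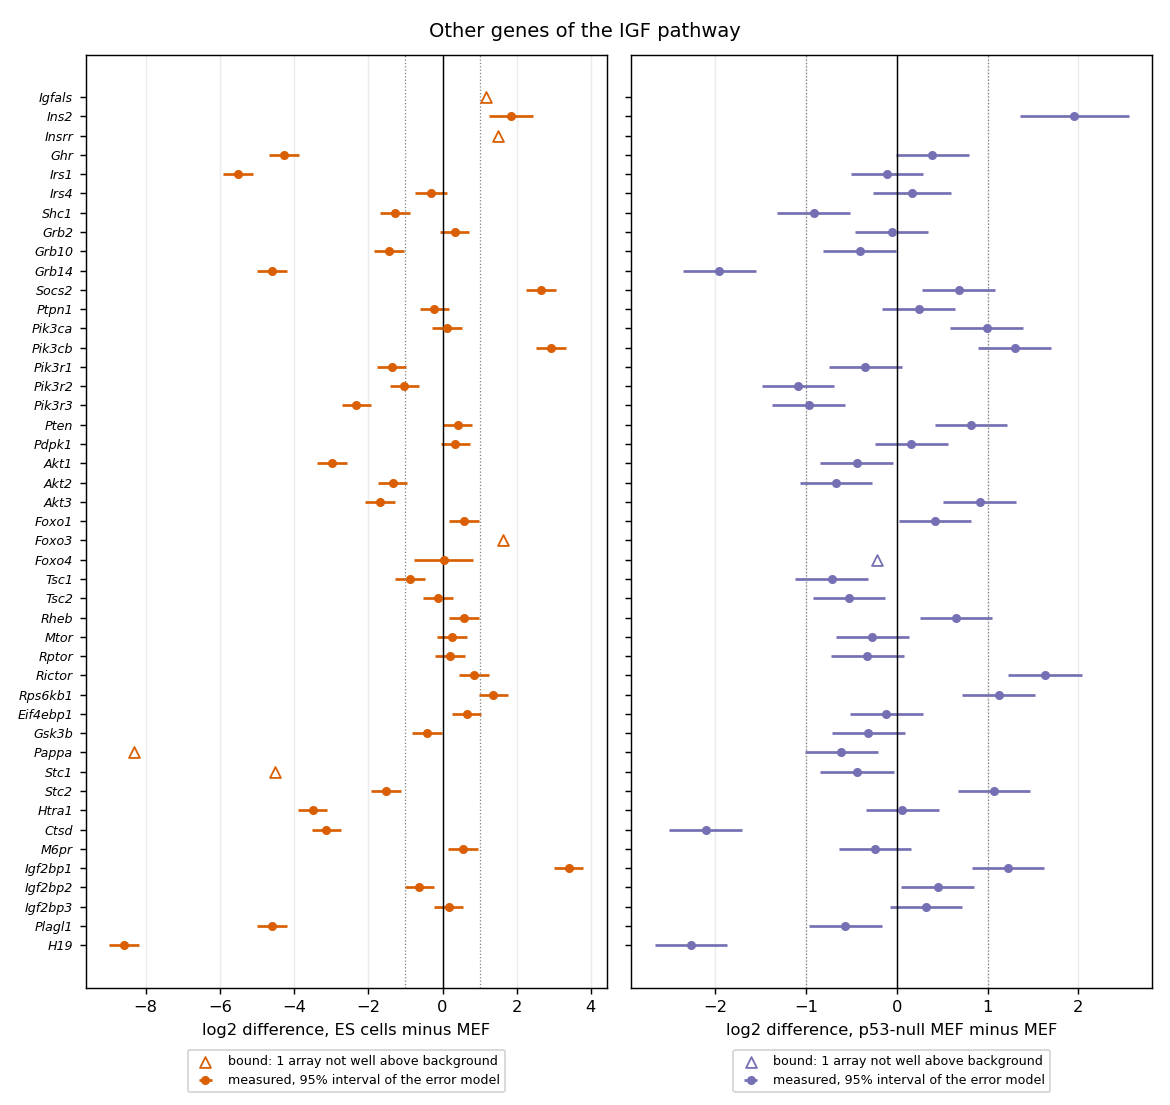
Log2 difference of the 45 pathway genes measured in at least 1 comparison, at their brightest probe, for ES cells minus MEF (left) and p53-null MEF minus MEF (right), with 95% intervals of the error model, open triangles for bounds and dotted lines at 2-fold. H19 and Pappa lie farthest to the left in ES cells and Igf2bp1 farthest to the right, and no gene reaches 5-fold in the right panel.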

How the data were processed

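Total RNA was labelled with Cy3 and hybridised to 3 one-colour Agilent arrays, 1 per group. The deposited scanner files hold spot intensity on a linear scale, obtained with Agilent Feature Extraction 9.5.3.1, background-subtracted and detrended within each array, per the file headers. The authors' deposited value table held the same intensity values rounded, with ratios between 0.995 and 1.005 and no log or centring, and medians of 50.0 for ES cells, 51.8 for p53-null MEF and 43.2 for MEF.

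Spots that the scanner marked as uneven or outliers were left out: 176 on the ES cell array, 62 on the p53-null MEF array and 192 on the MEF array, of 43379 each. Log2 signals were set against the array's 75th percentile (834, 1040 and 829 units in the same order) and averaged over the spots of a probe. A probe counted as well above background with that mark on 50% or more of its spots. The brightest probe stood for a gene, labelled by the newer design file. Pathway and marker genes missing under their symbol took the label that RefSeq (GRCm38.p6) pairs with it. Calls were at least 2-fold. The difference step recovered differences planted in probes well above background on simulated copies of the MEF array. That checks the arithmetic only, and not dim probes, bounds or scaling. Python 3.11.15 and limma 3.58.1 (normexp, quantile) were used. Alternatives were other background corrections, scalings, probe summaries, names and folds. Named genes were all members, pathway genes at least 5-fold different or directly related, and labels with the nearest patterns to members. The members and lists were chosen with earlier results of these data known.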

Additional observations from a re-analysis of the deposited data

How the results depend on the processing

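Over 10 alternatives for the 10 genes in 3 comparisons, 261 of 300 differences moved by no more than the 95% interval of the error model. Some alternatives could move little: the authors' rounded values, RefSeq names and no filter on dim probes each left all 30 differences the same. Larger moves came under spike-in scaling (16 moved, 4 reversed), the mean of all probes (11), normexp correction (6) and names in all 3 files (2). Of all 300, 12 changed sign. Of differences of 2-fold or more, 4 did so, under spike-in scaling: Igf2r at 0.78, Igfbp4 at 0.84 and Igfbp7 at 0.62 for p53-null MEF against MEF, and Igfbp2 at -0.21 for ES cells against p53-null MEF. The other 8 were of smaller differences: for p53-null MEF against MEF, Igf1r, Igf2 and Igfbp5 under spike-in scaling (1.71, 1.72 and 1.66) and without scaling (0.07, 0.08 and 0.02), and Igf1r at 0.31 as the mean of all probes, which also put Igfbp3 at 0.07 for ES cells against p53-null MEF. Spike-in scaling, on the spike-in spots, moved the median of all labels to 2.09 for p53-null MEF against MEF and -1.65 for ES cells against p53-null MEF. Why it moved was not tested. By 2-fold or more it put 5 of the 10 genes higher in p53-null MEF in place of 0 and 2 lower in place of 5, both against MEF, and left 0 higher in ES cells than in p53-null MEF in place of 1. Without scaling 3 genes were lower in p53-null MEF. At 5-fold, 0 genes were higher in ES cells than in MEF and 0 than in p53-null MEF, 5 were lower in ES cells than in p53-null MEF in place of 8, and 2 were lower in p53-null MEF, against MEF. The share of higher labels among all called ones for p53-null MEF against MEF was 52.9%, 71.3% without scaling and 98.0% with spike-ins, and for ES cells against p53-null MEF it was 52.9%, 41.1% and 9.38%. Pathway genes higher in p53-null MEF than in MEF numbered 6, or 10 without scaling. With normexp correction, pathway genes higher in ES cells numbered 4 in place of 8 against MEF and 3 in place of 6 against p53-null MEF; spike-ins gave 0 higher and 36 lower in place of 6 and 16 in the second of these. With only names in all 3 files (chosen after seeing the data), Igf1r was at -0.71 between p53-null MEF and MEF. No paired analysis was possible because each group is 1 array. Signals near background, as of Igf1 and Igfbp5 in ES cells, limit how far their folds can be read.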
